A study of Mus musculus with 24 samples.

Results

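The 31 genes described here lie around Apobec1 on mouse chromosome 6. They were chosen by symbol for their position, with lectin genes and the 3 genes at the locus itself left out, and are 31 of the 23337 gene symbols counted in total RNA. The nearest was Rimklb, 90.7 kb from Apobec1, and the farthest was Cd9, 2.86 Mb away (GRCm38.p6 coordinates from RefSeq). Of the 31, 7 lay at lower coordinates than Apobec1 and 24 at higher coordinates.

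The study asked how functional APOBEC1 affects translation, and compared Apobec1-/- (KO) with wild-type (WT) C57BL/6J mouse macrophages grown from bone marrow. Mice were 6 to 12 weeks old, littermates or matched by age, and marrow cells of both genotypes were grown for 7 days in medium with M-CSF (20 ng/mL), which turns marrow precursors into macrophages. Each of 6 KO and 6 WT cultures gave a total RNA library and a library of ribosome footprints (ribosome-protected fragments, the pieces of mRNA covered by a ribosome), and the labels put KO1 and WT1 to WT3 in batch 1, KO2 to KO4 and WT4 in batch 2, and KO5, KO6, WT5 and WT6 in batch 3. The labels say neither how the KO allele was built nor from which mice each culture came, so p-values reflect just the variation among these samples, and that may be technical.

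APOBEC1 changes cytidine to uridine in certain mRNAs, and its classical target is the apolipoprotein B transcript of intestinal cells. Genes beside a targeted allele are inherited with it, so in a backcrossed line a flanking stretch of chromosome can keep the sequence of the strain in which the allele was made. Whether the stretch around Apobec1 differed in sequence between these mice was not tested. The flanking genes form no pathway. They include immune receptors, complement proteases, a receptor that carries lysosomal enzymes, chromatin regulators and enzymes of ribosome assembly.

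A pair of the members, Emg1 and Phb2, starts from opposite strands of a single short stretch. Emg1 encodes a methyltransferase of ribosomal RNA and Phb2 encodes prohibitin-2, a scaffold of the mitochondrial inner membrane. Their start sites were 111 bases apart, at the ends of chr6:124712178-124712289 (GRCm38.p6, plus strand, start sites and sequence from the RefSeq promoter table). The RefSeq gene table ends Emg1 slightly inside the stretch, at 124712186. The stretch is shown because total RNA of both genes had the same direction of change in batch 3. That direction was common, as batch 3 was the highest for 8 of the 19 members called for batch in total RNA. Whether these genes share control was not tested. It was 75% G or C, and capitals mark its 3 copies of the GC box, GGGCGG or its reverse complement CCGCCC:
Emg1 and Phb2 start region: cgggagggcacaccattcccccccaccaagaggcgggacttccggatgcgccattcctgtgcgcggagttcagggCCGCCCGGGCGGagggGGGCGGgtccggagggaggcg

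The RefSeq promoter table, which holds 250 bases before to 50 after a gene's start, matched 23 of the 31 members, all but Slc2a3, M6pr, Klrg1, Atn1, Lag3, Usp5, Tapbpl and Iffo1. A GC box on either strand was present for 18 of the 23 (78.3%), against 38.2% of 27025 genes. CCAAT or its reverse complement ATTGG was present for 5 members (21.7%, against 41.1%). TATAAA or TTTATA was present for 1 member, Eno2 (4.35%, against 15.7%), and GAGGAA or TTCCTC, the core bound by the myeloid factor PU.1, for 7 members (30.4%, against 31.3%). Median G and C content was 61.7% for the members and 52.8% for the whole table. These are letter matches in a fixed window, and say nothing of which factors bind there.

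Total RNA libraries had 5077478 to 12059361 counts in genes, and footprint libraries 29561 (WT6) to 3714912 (WT4). Levels below are in CPM, which are counts relative to the TMM-scaled size of each library. Before TMM scaling, 3 counts came to 0.249 to 0.591 CPM in total RNA but to 101 CPM in the WT6 footprint library. After it, 3 counts in the WT6 footprint library were 80.4 CPM. Apobec1 itself was the check of the labels: its total RNA was 313, 387 and 474 CPM (lowest, median and highest) in WT and 604, 1084 and 1276 CPM in KO, while its footprints were 59.6, 89.97 and 102 CPM in WT and 0, 6.67 and 24.4 CPM in KO, with no overlap in either. Of 8 macrophage markers, 7 had a row and none of these averaged under 1 CPM, nor did any of 10 neutrophil markers. In contrast, all 11 markers of T, B and natural killer cells averaged under 1 CPM. Summed macrophage markers were 14034 to 28031 CPM in KO and 15634 to 42382 CPM in WT. Summed neutrophil markers covered a like range in both genotypes (KO 14.8 to 507 CPM, WT 11.4 to 563 CPM).

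Of the 31 members, 26 had enough counts to be tested in total RNA, 19 in footprints and 25 in footprints relative to total RNA. The 5 left out of the total RNA test were Klrg1 (1 count over 12 total RNA libraries), Rimklb (5), Clstn3 (8), Lag3 (29) and Vamp1 (133). Klrg1 and Lag3 are inhibitory receptors of natural killer and T cells, Vamp1 and Clstn3 act chiefly at synapses, and Rimklb is a ligase of brain metabolism. Klrg1 and Rimklb also had no footprint count, which allows up to 3 counts per library.

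No member passed the test for a difference between KO and WT in total RNA. With edgeR's quasi-likelihood test, adjusted over 10942 genes, 0 of 26 members were called, where 0.0183% of all genes were. At an unadjusted p under 0.05 there was 1 member, C1ra, against 4.68% of all genes, and DESeq2 and limma voom also called 0. The smallest adjusted p was 0.859. The estimates had 15 members higher and 11 lower in KO (49.5% of all genes were higher), with a median log2 difference of 0.02 against -0.00 over all genes tested. For 22 of the 26 members (84.6%, against 79.3% of all genes) the 95% interval of the difference lay within 1.5-fold in both directions. No member had KO and WT ranges that failed to overlap, which 0.128% of all genes tested had.

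**Figure D1:**
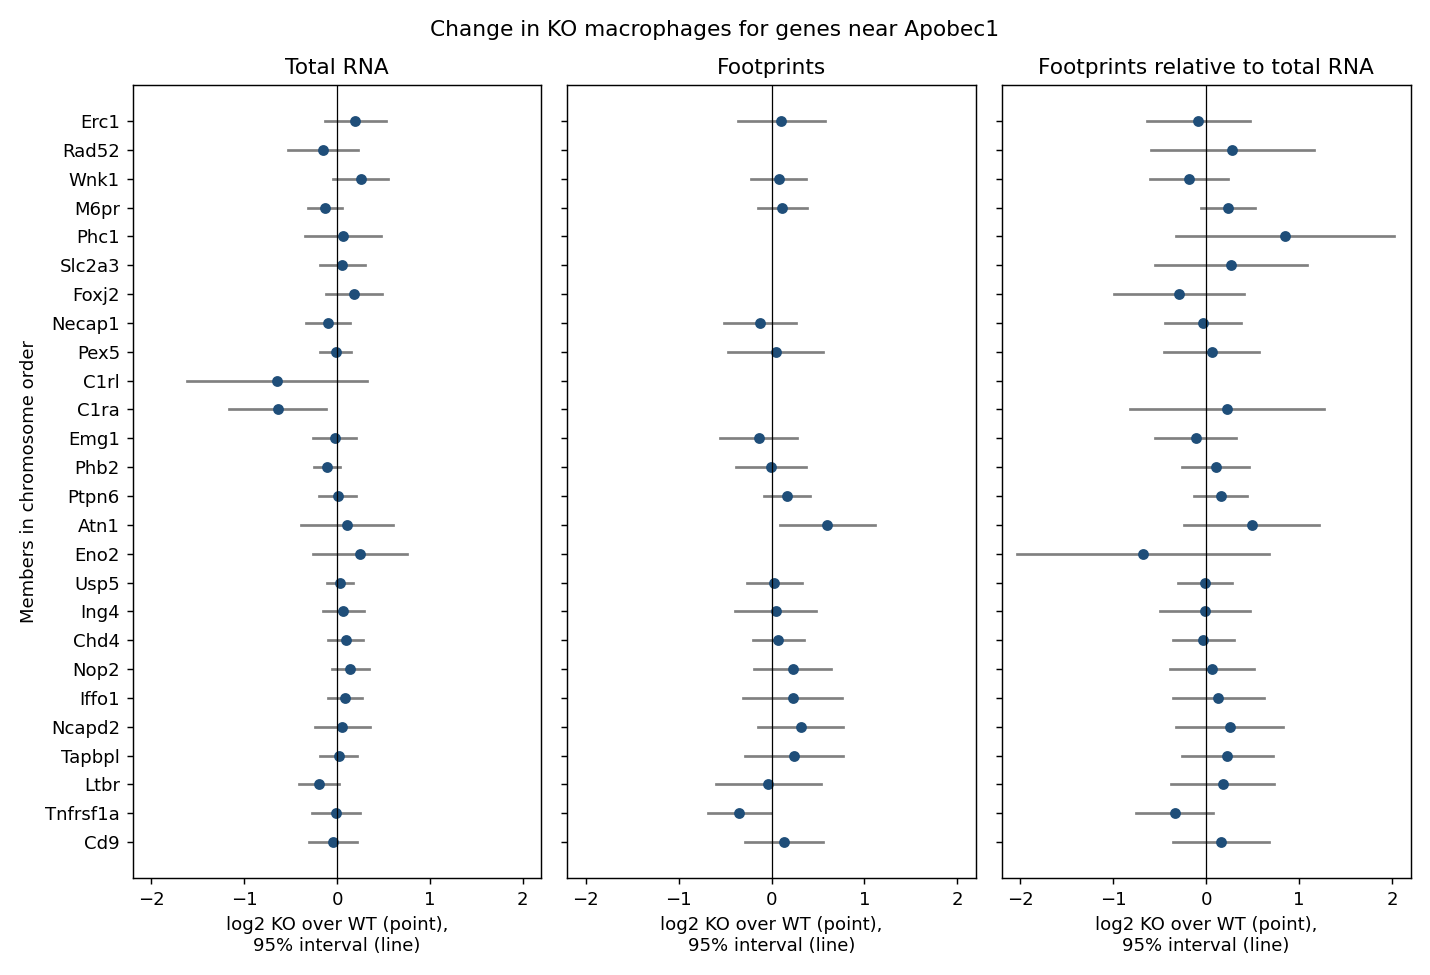
Estimated log2 KO over WT (points) with 95% intervals (lines) for each tested member in chromosome order, in total RNA, in footprints and in footprints relative to total RNA. Most intervals span 0, those for total RNA are the narrowest, and C1ra in total RNA and Atn1 and Tnfrsf1a in footprints lie off 0 without passing the adjusted test.

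Among receptors and signalling genes, Ptpn6 encodes SHP-1, a phosphatase that dampens immune receptor signals. Its total RNA was 356, 439 and 515 CPM (lowest, median and highest) in WT and 328, 502 and 546 CPM in KO. Both ranges overlapped almost wholly, and the log2 difference was 0.01 ± 0.09 (SE, n = 6 per genotype, edgeR adjusted p = 0.994). Cd9 encodes a tetraspanin of the cell surface. It ran from 346 through 377 to 626 CPM in WT and from 299 through 407 to 603 CPM in KO, with a log2 difference of -0.04 ± 0.12 (adjusted p = 0.958). In both genotypes the highest Cd9 values came from batch 3.

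Ltbr, the lymphotoxin beta receptor, had the second smallest p of the members in total RNA. It stood at 66.5, 72.0 and 108 CPM in WT and 62.2, 75.4 and 78.9 CPM in KO. The difference was -0.20 on the log2 scale (SE 0.10, 95% interval -0.41 to 0.02, adjusted p = 0.859). The WT maximum was WT4 alone: the other 11 cultures reached at most 88.0 CPM, and without WT4 the difference was -0.07. Tnfrsf1a, which encodes the main receptor for tumour necrosis factor, had a total RNA difference of -0.01 (interval -0.27 to 0.25), and Tapbpl, a peptide editor of MHC class I, one of 0.02 (interval -0.19 to 0.22).

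The complement proteases gave the lowest estimates. C1ra encodes a subunit of the C1 complex that starts the classical pathway, and C1rl a related protease. C1ra total RNA was 1.06, 4.28 and 11.2 CPM in WT and 1.19, 3.92 and 5.22 CPM in KO, from 7 to 68 counts per library. The log2 difference was -0.64 ± 0.24 (interval -1.16 to -0.12, adjusted p = 0.859), and within batches it was -0.22, -1.22 and -0.03 in batches 1, 2 and 3. WT4, the lone WT culture of batch 2, again stood above every other culture. Without it the C1ra difference was -0.18 (adjusted p = 0.999).

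C1rl followed the same culture. WT4 had 7.94 CPM and the other 11 cultures 0.826 to 2.96 CPM. The C1rl difference was -0.65 (interval -1.62 to 0.32, adjusted p = 0.859), and within batches it was 0.73, -2.07 and 0.02. WT4 also had the highest sum of the 7 macrophage markers (42382 CPM, against 14034 to 28031 in KO cultures), a neutrophil marker sum of 469 CPM against 67.6 to 116 in KO2 to KO4, and the highest osteoclast marker sum (99.9 CPM, against 11.5 to 23.95 in KO). The part of these in the C1ra, C1rl and Ltbr values was not tested.

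**Figure D2:**
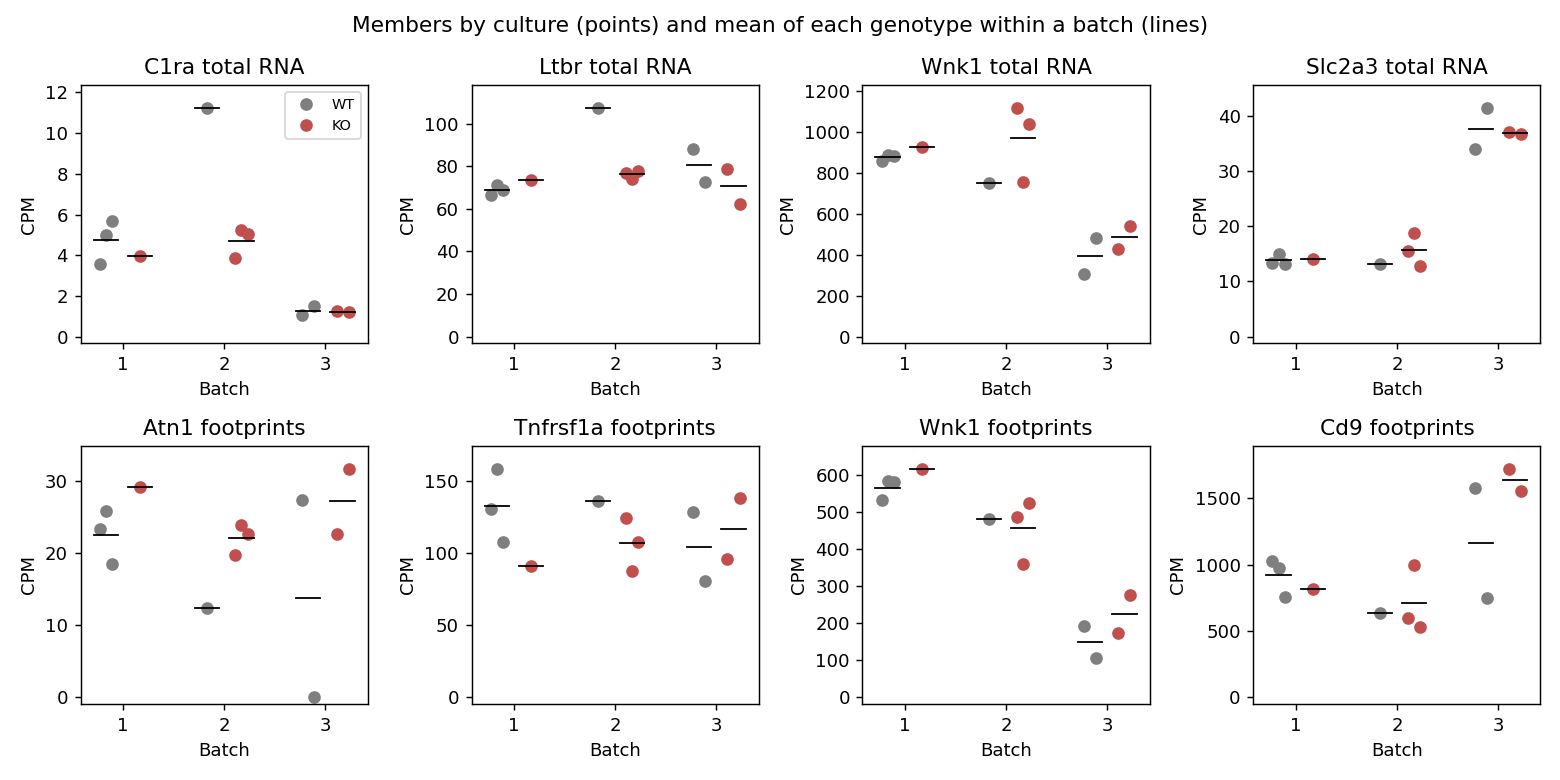
CPM by culture (points; grey WT, red KO) against batch for C1ra, Ltbr, Wnk1 and Slc2a3 in total RNA and Atn1, Tnfrsf1a, Wnk1 and Cd9 in footprints, with a line at the mean of each genotype within a batch. WT4, the lone grey point of batch 2, is the highest for C1ra (11.2 CPM) and Ltbr (108 CPM), and Slc2a3 and Wnk1 total RNA separate batch 3 from the others in both genotypes.

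For kinases and ubiquitin enzymes, Wnk1, a kinase that controls ion cotransporters, stood at 308, 806 and 889 CPM in WT and 430, 840 and 1118 CPM in KO. The ranges overlapped over most of their length and the difference was 0.25 ± 0.14 (interval -0.04 to 0.55, adjusted p = 0.859). KO was the higher in the mean of each batch, by 0.08, 0.35 and 0.33, and without WT5 the difference was 0.15. Usp5, which takes apart free ubiquitin chains, had the narrowest interval of the members, -0.10 to 0.17.

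Of 8 chromatin, transcription and genome genes, all 8 were tested in total RNA and 0 were called, with differences from -0.15 (Rad52, a recombination protein) to 0.19 (Foxj2, a forkhead factor). Chd4, the remodelling ATPase of the NuRD complex, was 296, 415 and 470 CPM in WT and 315, 454 and 507 CPM in KO. Its difference was 0.09 ± 0.09 (interval -0.09 to 0.28), and 0.0116 without WT4. Ing4, a reader of histone methylation, had an interval of -0.15 to 0.29, Phc1, a Polycomb subunit, one of -0.35 to 0.48, and Ncapd2, a condensin subunit, one of -0.24 to 0.36. Iffo1, an intermediate filament family protein of the nucleus, had one of -0.10 to 0.27.

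None of the 5 tested membrane and organelle genes was called. M6pr, a mannose 6-phosphate receptor that brings enzymes to lysosomes, was 355, 405 and 539 CPM in WT and 315, 358 and 461 CPM in KO. Its KO and WT ranges overlapped and the difference was -0.13 ± 0.08 (interval -0.31 to 0.06, adjusted p = 0.859). It was -0.06 without WT5 and -0.08 without KO6. The differences of Necap1 (clathrin-coated vesicles), Pex5 (peroxisomal import), Phb2 and Erc1 (a scaffold of the cell cortex) ran from -0.11 for Phb2 to 0.20 for Erc1. Of the metabolic genes, Slc2a3, a glucose transporter, had a difference of 0.05 (interval -0.19 to 0.30) and Eno2, the neuronal form of enolase, one of 0.25 (interval -0.26 to 0.75). The ribosomal RNA methyltransferases Emg1 and Nop2 had differences of -0.03 and 0.15.

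The members were also set out by distance from Apobec1. Of the 7 members within 1 Mb, 5 were tested in total RNA and 0 had p under 0.05. Of the tested members farther away there were 21, and 1, C1ra, had p under 0.05. The nearest tested member, Slc2a3, lay 125 kb away. Other tested genes within 10 Mb of Apobec1 numbered 121 in total RNA, of which 14 (11.6%) had p under 0.05, against 4.68% of all genes. Among the 121, 1 was called, Dppa3, which is among the 3 locus genes left out of the members. In footprints 15 of 77 such genes (19.5%) had p under 0.05, against 8.52% of all genes, and 0 were called by edgeR. No test compared these shares with those of the members or of all genes.

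**Figure D3:**
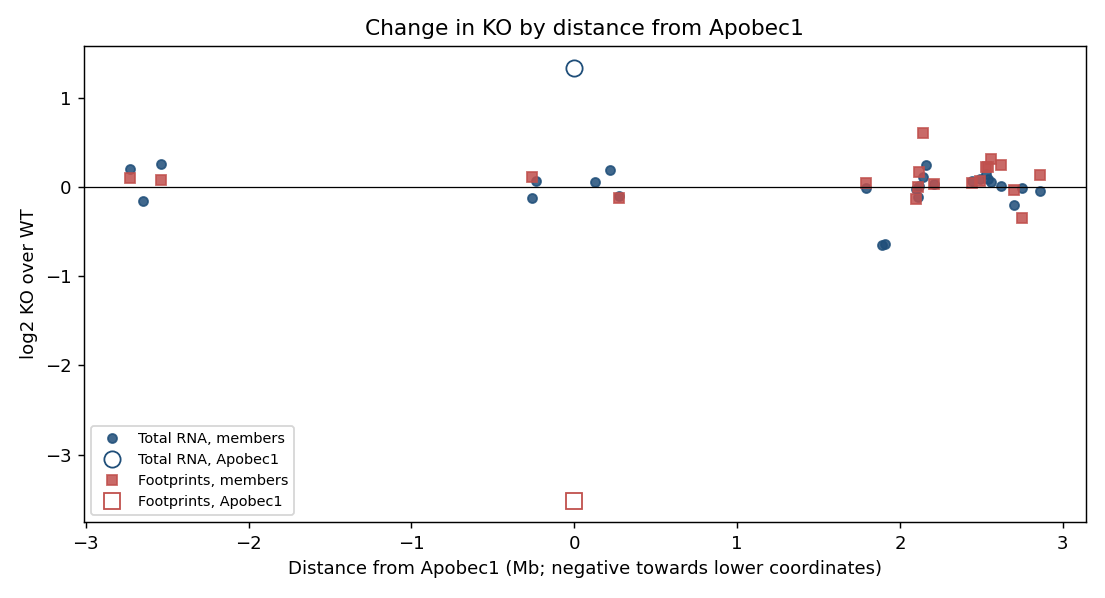
Log2 KO over WT against distance from Apobec1 in Mb, for total RNA (circles) and footprints (squares) of the tested members, with Apobec1 as open symbols. Most members lie near 0 on both sides of Apobec1, with C1ra (-0.64) and C1rl (-0.65) in total RNA and Atn1 (0.60) in footprints farthest from it, and Apobec1 itself is at 1.34 in total RNA and -3.51 in footprints.

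No member passed the test in footprints either, and the intervals were wider. Of 19 tested members, 0 were called by edgeR's test, where 0.0832% of all genes were, and 2 had an unadjusted p under 0.05 (Atn1 and Tnfrsf1a) where 8.52% of all genes had. The smallest adjusted p was 0.508, and DESeq2 and limma voom called 0. Estimates had 14 members higher and 5 lower in KO (52.4% of all genes were higher) with a median of 0.08, against 0.01 over all genes. The intervals of 12 of 19 members lay within 1.5-fold, and no member's KO and WT ranges failed to overlap (0.291% of all genes tested had ranges that did not overlap).

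Atn1 encodes atrophin-1, a transcriptional corepressor. Its footprints were 0, 20.9 and 27.5 CPM in WT and 19.7, 23.4 and 31.8 CPM in KO, from 0 to 83 counts per library. The lowest WT value was the shallow WT6 library and the next was WT4 at 12.5 CPM. The other WT cultures lay within or near the KO range. The difference was 0.60 ± 0.25 (interval 0.09 to 1.11, adjusted p = 0.508), and 0.34 (adjusted p = 0.987) without WT4. Atn1 total RNA differed by 0.11 (interval -0.39 to 0.60).

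Tnfrsf1a footprints were 80.4, 129 and 158 CPM in WT and 87.7, 102 and 138 CPM in KO. The lowest WT value rested on 3 counts in WT6. The difference was -0.35 ± 0.16 (interval -0.68 to -0.01, adjusted p = 0.564). Fitted within batches 1, 2 and 3 it was -0.49, -0.33 and -0.19. The plain mean of log2 CPM in batch 3 had the opposite sign, at 0.17.

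The 5 members with the highest total RNA CPM were all tested in footprints. Ptpn6 stood at 513, 639 and 756 CPM in WT and 601, 724 and 781 CPM in KO, with a difference of 0.17 (interval -0.08 to 0.41). Chd4 footprints differed by 0.07 (interval -0.20 to 0.34), Wnk1 by 0.08 (interval -0.22 to 0.38), and M6pr by 0.12 (interval -0.15 to 0.38). Cd9, from 637 to 1576 CPM in WT and from 532 to 1726 CPM in KO, had a difference of 0.13 (interval -0.28 to 0.55). C1ra and C1rl were not tested in footprints. WT4 had 37 C1ra counts (10.7 CPM) and 51 C1rl counts (14.8 CPM), and no other culture had more than 19 and 7.

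Footprints relative to total RNA, called translational efficiency in the field, were tested in a joint model of genotype and library kind over all 24 libraries. By edgeR 0 of 25 members were called, where 0.00930% of all genes were, and 0 had an unadjusted p under 0.05, where 2.98% of all genes had. All 25 adjusted p-values were 1, and DESeq2 and limma voom called 0 members. Estimates had 15 members higher and 10 lower in KO (50.8% of all genes were higher), with a median of 0.10, against 0.00 over all genes. Intervals were wide here: 10 of 25 lay within 1.5-fold and 19 of 25 within 2-fold. For members outside these bounds a change beyond them was not excluded.

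Tnfrsf1a and M6pr had the smallest p-values of the members for efficiency. The ratio of footprint to total RNA CPM for Tnfrsf1a was 0.774, 1.24 and 1.72 in WT and 0.792, 0.900 and 1.19 in KO. Its KO range lay inside the WT range, and the log2 difference was -0.34 ± 0.20 (interval -0.75 to 0.07, adjusted p = 1), from -0.50 to -0.22 with 1 culture left out, the latter without KO1. For M6pr the ratio was 0.603, 0.742 and 0.854 in WT and 0.755, 0.935 and 1.16 in KO. The upper WT cultures overlapped the lower KO cultures, and the difference was 0.23 ± 0.14 (interval -0.05 to 0.52, adjusted p = 1), and 0.14 without WT5. In the authors' deposited table over all genes, 3 of 31 members had a p-value under 0.05, M6pr (0.00777), Tnfrsf1a (0.0275) and C1rl (0.0286), against 4.06% of 19437 genes, and the smallest adjusted p-value of a member was 1. The authors' deposited table over the top 25 percent of genes held 15 members, of which 2 had p under 0.05 (7.71% of its 5600 genes did), and its smallest adjusted p-value for a member was 0.462, for M6pr.

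Culture batch, in contrast, was called for most members in total RNA. Over the 3 batches, with genotype in the model, edgeR called 19 of 26 members (73.1%), where 61.6% of all genes were called. Batch 3 was the highest of the batches for 8 of the 19 and the lowest for 9, and over all 6742 genes called it was the highest for 2810 and the lowest for 2768. Each adjusted p for batch belongs to the test over the 3 batches together, and no pair of batches was tested alone. Slc2a3 had 34.0 to 41.5 CPM in batch 3 and 12.8 to 18.8 CPM in the other batches, in both genotypes. Batch 3 did not overlap the others, and Slc2a3 was 1.41 higher on the log2 scale in batch 3 than in batch 1 (over 3 batches, adjusted p = 1.16e-06). Wnk1 had 308 to 541 CPM in batch 3 and 752 to 1118 CPM elsewhere. Batch 3 again did not overlap the others, at -1.09 for batch 3 over batch 1 (over 3 batches, adjusted p = 1.06e-04).

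C1ra had 1.06 to 1.49 CPM in batch 3 and 3.55 to 11.2 CPM elsewhere, a log2 difference of -1.68 from batch 1 (over 3 batches, adjusted p = 7.40e-05). Usp5 had 113 to 121 CPM in batch 2, 138 to 149 CPM in batch 1 and 154 to 170 CPM in batch 3. Its 3 batches did not overlap, with differences from batch 1 of -0.30 for batch 2 and 0.19 for batch 3 (over 3 batches, adjusted p = 3.30e-04). Emg1 and Phb2, whose shared start region is printed above, had batch 3 values 0.37 and 0.44 over batch 1 and 0.56 and 0.24 over batch 2 (over 3 batches, adjusted p = 0.00416 and 8.29e-04). In batch 2 they differed from batch 1 in opposite directions, by -0.19 and 0.20. In footprints edgeR called neither Emg1 nor Phb2 for batch (over 3 batches, adjusted p = 0.197 and 0.516).

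In footprints, batch was called for 4 of 19 members (21.1%), where 33.4% of all genes were called. Wnk1 was lower in batch 3 than in batch 1, at -1.59 on the log2 scale (107 to 276 CPM against 532 to 616 CPM; over 3 batches, adjusted p = 7.40e-07). Cd9 was higher by 0.67 than in batch 1 and by 1.12 than in batch 2 (750 to 1726 CPM against 760 to 1025 and 532 to 1001 CPM; over 3 batches, adjusted p = 0.00313). Ncapd2 was higher than in batch 1 by 1.21 (26.8 to 201 CPM against 32.3 to 60.6 CPM; over 3 batches, adjusted p = 0.00969), and the ranges of both genes overlapped. Chd4 was lower than in batch 1, at -0.60 (321 to 477 CPM against 595 to 656 CPM; over 3 batches, adjusted p = 0.0151). Wnk1, Cd9, Ncapd2 and Chd4 were also called for batch in total RNA, each with the same direction in batch 3.

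Batch 3 stood apart in other ways. Its 4 cultures had 172 to 386 total RNA counts of Xist, the X-inactivation RNA, against 2 to 11 in the other 8, and at most 1 count of each of 4 Y-linked genes, which had at least 155 counts in every culture of batches 1 and 2. Its footprint libraries had 29561 to 223504 counts. Its total RNA libraries, with 6331272 to 7114862 counts, lay within the range of the others. Batch and the sex of the marrow cannot be told apart for these members. Neutrophil marker sums were 421 to 563 CPM in batch 3, 11.4 to 16.7 CPM in batch 1, and in batch 2 67.6 to 116 CPM in KO2 to KO4 and 469 CPM in WT4. WT4, inside the batch 3 range for these markers, had 13.2 CPM of Slc2a3 and 752 CPM of Wnk1 in total RNA, both outside the batch 3 range. The part of neutrophil RNA in the values of the members, Slc2a3 and Wnk1 included, was not tested. In bulk RNA fewer cells of a type and less RNA per cell cannot be told apart.

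Footprints were also set against total RNA within the WT cultures. In the 6 WT cultures edgeR called 15 of 25 members (60%), where 62.3% of all genes were called, 8 with more footprints than the average gene (28.2% of all genes) and 7 with fewer (34.1%). Per the file names, footprints were counted in coding sequence, whereas no region is named for total RNA, so a gene with long untranslated ends can have a low ratio for that reason alone. The comparison with the average gene carries this limit too, so calls of more or fewer footprints may reflect the counted regions. Members are not compared with each other.

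Cd9 had 1.43 to 2.72 times as many footprint CPM as total RNA CPM in the 6 WT cultures, all above 1 (log2 1.27 ± 0.13, adjusted p = 1.47e-09). Ptpn6 ratios were 1.21 to 1.67, also all above 1 (0.64 ± 0.11, adjusted p = 1.15e-05). The other members with more footprints were Nop2 (0.88), Ing4 (0.77), Usp5 (0.61), Chd4 (0.52), Tnfrsf1a (0.38) and Ncapd2 (0.37).

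Ltbr had ratios of 0.0908 to 0.469, all below 1 (log2 -1.90 ± 0.20, adjusted p = 2.16e-09). Foxj2 ratios were 0 to 0.521, where the 0 was the WT6 library (-1.42 ± 0.21, adjusted p = 1.29e-06). Phc1 (-1.33), Slc2a3 (-1.003), Wnk1 (-0.65), Iffo1 (-0.53) and M6pr (-0.36) also had fewer footprints than the average gene. Tapbpl was not called (0.06, interval -0.34 to 0.45). KO ratios covered a like range: Cd9 1.78 to 2.94, Ptpn6 1.33 to 1.94 and Ltbr 0.170 to 0.346.

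**Figure D4:**
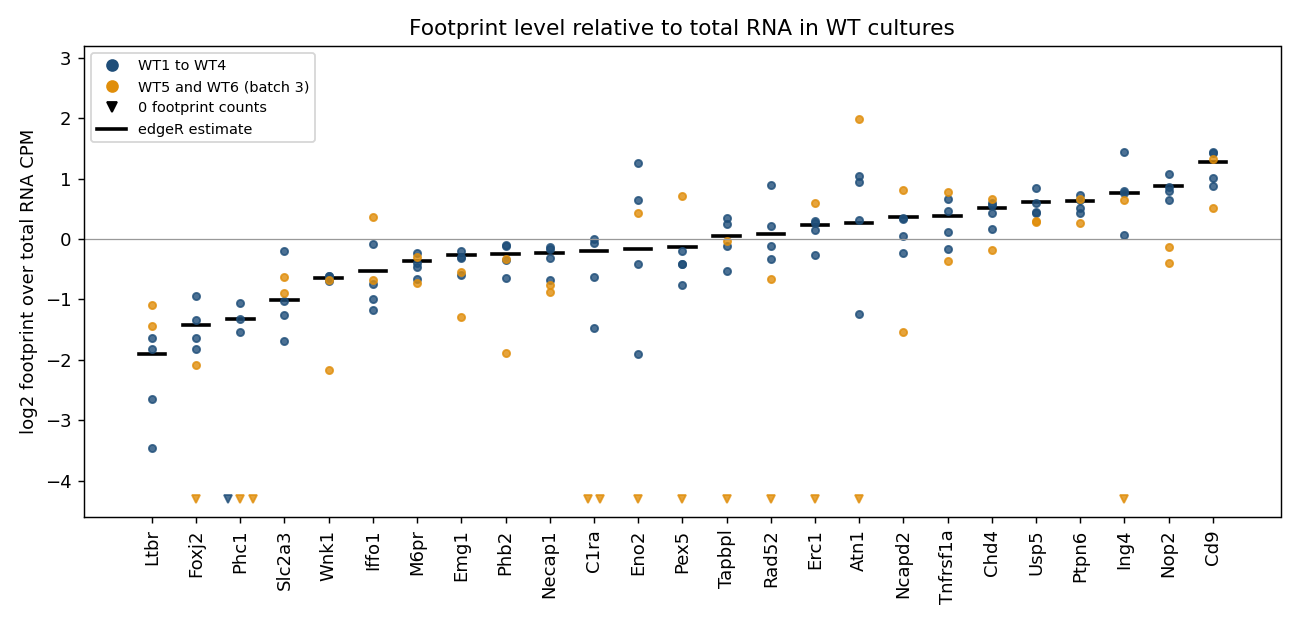
Log2 ratio of footprint to total RNA CPM in each WT culture (points; blue WT1 to WT4, orange WT5 and WT6) and the edgeR estimate (bar) for the 25 tested members, ordered by estimate, with triangles at the bottom for libraries with 0 footprint counts. Points of Ltbr (estimate -1.90) all lie below 0 and points of Cd9 (1.27) all above 0. All triangles are WT5 or WT6 except that of Phc1 in WT2.

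Reads could be shared between members and other annotated transcripts. Emg1 overlaps the end of a neighbouring gene, long noncoding RNAs overlap Pex5, C1rl, Ing4, Tapbpl and Cd9, and small RNAs lie inside Wnk1, Foxj2, Chd4, Ncapd2 and Phb2. Whether the counting used strand is not given in the sources used here, so such reads cannot be told apart and the values of these genes are uncertain to that degree.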

How the data were processed

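Total RNA and ribosome footprints were sequenced from 12 macrophage cultures (24 libraries) with a commercial ribosome profiling kit, per the labels' protocols. The authors deposited raw counts per gene symbol, one table per library. A gene missing from a footprint table was given 0, since those tables list counted genes only. The submitters' processing notes name HTSeq, DESeq2, DESeq, TopHat2 2.1.0, Bowtie 1.1.2, Trim Galore, Cufflinks 2.2.1 and the mm10 build, without their roles. Annotation release and strand are not given in the sources used here. Reads without a unique alignment were 27.8% to 51.2% of each total RNA table and 45.6% to 80.1% of each footprint table, and stayed out of all tests with the other summary lines. The authors' deposited result tables give, per the file headers, p-values raw and adjusted, beside a log2 fold change, a test score and a mean signal in normalized counts. The direction of that fold change is not stated, so only the p-values are given.

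The test was edgeR's (4.0.16, under R 4.3.3) robust quasi-likelihood F-test after TMM scaling, on genes kept by filterByExpr at 10 counts, with p-values adjusted by Benjamini-Hochberg over all genes tested and called under 0.05. Batch was in each model, and batch by molecule in the joint one. The SE is the estimate divided by the square root of F, and intervals are 95%. Members were called within such fits of the whole tables. Described in full were members with p under 0.05 or among the 2 smallest p in each genotype comparison, the 5 with the highest total RNA CPM, and the 4 with the smallest p for batch and for footprints relative to total RNA. The remaining members are given by role. C1rl was added after its values were seen. Members and lists were chosen with earlier results of these data known. Alternatives were limma voom (3.58.1, quality weights), DESeq2 (1.42.0), RLE and upper quartile scaling, no filter, no batch term, a replicate block, single batches, and leaving out each culture or all cultures with a footprint library under 1000000 counts. The test was also run on counts simulated from its own fitted means and spread. Such counts hold no outlying cultures like WT4, so no conclusion about these data is drawn from that run.

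Deviations of the total RNA and footprint library of a culture correlated at 0.219 to 0.558 in all 12 cultures. Each deviation was taken from the mean of its genotype, with batch left in. Libraries of the same batch could therefore correlate too, so the pairing by culture rests on the labels' numbers. KO and WT cultures of the same number had correlations from 0.0274 (KO3 and WT3) to 0.807 in total RNA and 0.0731 to 0.328 in footprints. Batch was left in here too, so whether they pair was not settled.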

Additional observations from a re-analysis of the deposited data

Results flagged for a closer look

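In 4 of 52 groups of 6 cultures (13 members, each in both genotypes and both kinds of library), a single culture lay far from the rest of its group. By chance about 1 in 20 groups of like cultures would, whereas these groups span 3 batches, which the rate does not allow for. The 13 members were picked by p-value or CPM in these same data, which the rate does not allow for either. C1ra footprints in WT4 were 10.7 CPM (37 counts), against 0 to 3.56 CPM in the other WT cultures. Ltbr total RNA in KO6 was 62.2 CPM, below 73.4 to 78.9 CPM in the other KO cultures. Ncapd2 total RNA in KO1, the lone KO culture of batch 1, was 32.1 CPM, against 69.4 to 85.9 CPM in the other KO cultures, and the WT cultures of batch 1 had 38.0 to 47.5 CPM. Foxj2 total RNA in WT5 was 19.5 CPM, against 35.4 to 41.3 CPM in the other WT cultures. Members beyond the 13 were not screened, so the list is not complete. C1rl was among those not screened, with total RNA of 7.94 CPM in WT4 and 0.826 to 1.62 CPM in the other WT cultures.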

How the results depend on the processing

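Member counts stayed within 1.5 times of those given, or at 0, under all alternatives but 1 filter, 1 batch and 1 choice of cultures. Without the cultures with a footprint library under 1000000 counts, which leaves WT1, KO2, KO4 and WT4 with WT4 as the lone WT culture of batch 2, total RNA had 6 members called (C1ra, C1rl, Chd4, Ing4, Ltbr and Wnk1, among 2740 of all genes), footprints 1 (C1ra, among 1413 genes), batch in total RNA 9 (among 3831) and WT footprints relative to RNA 8 (among 4389). In the same setting the total RNA difference was -1.35 for C1ra, -0.47 for Ltbr, 0.53 for Wnk1 and 0.33 for Chd4. With no filter on low counts, footprints had 1 member called, C1rl, among 159 genes. The footprint count also moved in batch 2 alone, where WT4 was the lone WT culture. Directions turned for small differences: Ptpn6 total RNA was -0.0160 with the replicate block, -0.0316 without those cultures and -0.19 in batch 3 alone, Ltbr was 0.0941 and Chd4 -0.0176 in batch 1 alone, Cd9 was 0.11 in batch 2 alone, and Tnfrsf1a efficiency was 0.00655 without those cultures. Leaving out 1 culture at a time gave -0.107 to 0.0738 for Ptpn6 and -0.112 to 0.0293 for Cd9. The cause of these turns was not tested. With the replicate block 0 members were called in total RNA, 0 in footprints and 0 for efficiency, and 14 for WT footprints relative to RNA. KO and WT numbers share no stated origin. Footprint depth limits batch 3 most, where 3 counts of WT6 are 80.4 CPM.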
